A study of Mus musculus with 10 samples.

Results

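The 43 genes described here encode mouse Polycomb proteins (31 genes) and the enzymes and readers of DNA methylation (12 genes). They were listed by name, from the known subunits and families, and all 43 were found in the GENCODE annotation of build mm10, which holds 21938 protein-coding genes. ATAC-seq, in which the transposase Tn5 cuts open chromatin, was performed on immortalized mouse embryo fibroblasts with floxed Ash2l, in which exon 4 of both endogenous alleles had been deleted through a Cre recombinase activated by 4-hydroxytamoxifen. In all groups, the cells lived on a lentiviral fusion of FKBP12 F36V, HA tags and human ASH2L, a subunit shared by the KMT2 methyltransferases of histone H3 lysine 4. Treatment with dTAG-13, which leads to degradation of the fusion protein, lasted 30 min, 4 h, 8 h or 24 h, and with the control cells, labelled WT and given ethanol according to the methods, this made 5 groups of 2 replicates. Clones were obtained by limiting dilution, and the paper names a single clone, NG3, for the ATAC-seq.

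The deposited list used here pooled all 10 libraries into 153924 accessible sites with a chromosome, a start and an end, and 153682 of them lay on the assembled chromosomes. It gives no read count and no value per library, so depth is unknown, no replicate error can be given and no group can be compared with another. Each value below therefore describes where chromatin was accessible in at least part of this experiment. Of the sites, 413 lay within 1 kb of a start site of the 43 genes (75 promoter sites), in the rest of their bodies (144 body sites) or within 20 kb of them (202 flank sites), some sites counting for neighbouring genes. An accessible promoter does not show that a gene is expressed. Of the fibroblast markers, 10 of 10 had a promoter site, but so had 4 of 4 endothelial markers, 4 of 4 neuronal markers and 4 of 5 epithelial markers, against 1 of 4 immune, 2 of 4 pluripotency and 2 of 4 germ line markers.

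Polycomb repressive complex 2 (PRC2) methylates lysine 27 of histone H3 through Ezh1 or Ezh2, with Eed, Suz12 and the histone-binding proteins Rbbp4 and Rbbp7. PRC1 ubiquitinates histone H2A through Ring1 or Rnf2, each paired with 1 of the PCGF proteins, and the PR-DUB complex with Bap1 removes this ubiquitin. Dnmt1 copies DNA methylation after replication with the help of Uhrf1, Dnmt3a and Dnmt3b set it anew, the catalytically inactive Dnmt3l stimulates them, TET enzymes oxidize 5-methylcytosine, and MBD proteins take their name from a domain that in most of them binds methylated CpG. In mammals, promoters rich in CpG are usually free of DNA methylation and accessible in most cell types.

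All 43 genes carried at least 1 promoter site, but not all of their annotated start sites did, and the sequences around the start sites with and without a site differed in CpG density. A pair of start sites of Dnmt1 and a pair of Phc2, a subunit of PRC1, are shown for this difference, together with the promoters of the paralogs Dnmt3a and Dnmt3l, the member rich in CpG with the widest site and the sole member without a CpG island. The sequences are RefSeq promoters of build GRCm38.p6 (250 bp before to 50 bp from the start site), written 5′ to 3′ on the strand of the gene, with each CpG in capitals.

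Dnmt1 start with a site, chr9:20952574-20952873 (- strand): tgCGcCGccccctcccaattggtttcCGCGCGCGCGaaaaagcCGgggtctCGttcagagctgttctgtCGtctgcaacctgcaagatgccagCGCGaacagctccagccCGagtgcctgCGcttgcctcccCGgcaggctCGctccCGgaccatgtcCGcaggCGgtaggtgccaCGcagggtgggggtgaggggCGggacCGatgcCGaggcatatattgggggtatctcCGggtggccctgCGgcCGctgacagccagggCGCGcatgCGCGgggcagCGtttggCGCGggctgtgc
Dnmt1 start without a site, chr9:20959839-20960138 (- strand): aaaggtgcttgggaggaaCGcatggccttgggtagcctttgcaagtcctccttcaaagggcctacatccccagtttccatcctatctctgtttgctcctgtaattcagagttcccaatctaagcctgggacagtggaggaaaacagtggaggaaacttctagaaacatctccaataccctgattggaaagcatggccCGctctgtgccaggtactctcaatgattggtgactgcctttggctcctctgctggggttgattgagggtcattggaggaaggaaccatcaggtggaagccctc
Phc2 start with a site, chr4:128727321-128727620 (+ strand): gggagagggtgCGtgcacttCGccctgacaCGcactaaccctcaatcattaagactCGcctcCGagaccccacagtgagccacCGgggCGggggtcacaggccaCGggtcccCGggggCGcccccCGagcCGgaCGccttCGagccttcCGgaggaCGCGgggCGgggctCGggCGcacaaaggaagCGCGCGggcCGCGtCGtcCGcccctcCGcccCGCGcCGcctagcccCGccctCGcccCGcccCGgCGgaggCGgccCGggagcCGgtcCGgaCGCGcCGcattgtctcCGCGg
Phc2 start without a site, chr4:128688488-128688787 (+ strand): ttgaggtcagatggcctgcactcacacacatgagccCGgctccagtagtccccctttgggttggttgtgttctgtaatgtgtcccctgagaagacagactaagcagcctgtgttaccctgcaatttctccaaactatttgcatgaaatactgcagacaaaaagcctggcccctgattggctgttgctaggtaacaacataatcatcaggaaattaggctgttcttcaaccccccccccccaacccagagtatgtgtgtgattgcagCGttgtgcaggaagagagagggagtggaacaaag
Dnmt3a start with a site, chr12:3806730-3807029 (+ strand): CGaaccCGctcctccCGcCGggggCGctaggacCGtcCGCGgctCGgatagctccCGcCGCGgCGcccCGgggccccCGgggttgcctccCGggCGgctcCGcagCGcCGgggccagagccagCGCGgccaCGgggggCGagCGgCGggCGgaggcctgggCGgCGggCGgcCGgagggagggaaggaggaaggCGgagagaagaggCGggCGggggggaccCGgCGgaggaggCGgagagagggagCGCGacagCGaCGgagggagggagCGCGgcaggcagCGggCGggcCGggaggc
Dnmt3l start with a site, chr10:78055085-78055384 (+ strand): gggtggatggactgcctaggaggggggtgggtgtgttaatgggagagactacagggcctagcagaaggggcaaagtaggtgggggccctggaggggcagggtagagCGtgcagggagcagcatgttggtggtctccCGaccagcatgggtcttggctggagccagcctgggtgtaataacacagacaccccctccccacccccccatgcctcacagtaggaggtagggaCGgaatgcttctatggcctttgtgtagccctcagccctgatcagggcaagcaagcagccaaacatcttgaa

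The accessible Dnmt1 promoter held 33 CpG in 300 bp and the outermost one further upstream held 2. The accessible Phc2 promoter held 45 CpG and the start site upstream of it, which lies between body sites, held 2. The Dnmt3a promoter held 46 CpG, whereas the Dnmt3l promoter lay inside a site of 1110 bp with 3 CpG. Dnmt3l is therefore shown as a CpG-poor start with a site, in contrast to the CpG-poor starts of Dnmt1 and Phc2.

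RefSeq promoters were found for 37 of the 43 genes, with 52 promoters in all. A site lay within 1 kb of the start in 47 of the 52. Among all 20150 RefSeq promoters, 69.0% had one. The observed to expected ratio of CpG (the count of CpG relative to that predicted from the counts of C and G) had a median of 0.810 in the 47 member promoters with a site, ranging from 0.114 to 1.23. In the 5 without a site it had a median of 0.132 and a range of 0.101 to 0.286. Over all promoters the medians were 0.743 with and 0.188 without a site, so that the members followed the same order. The 5 promoters without a site belonged to Aebp2, Mtf2, Pcgf5, Phc2 and Dnmt1, each of which had another promoter with a site. A ratio under 0.3 was found in 9 member promoters, 4 of which had a site, compared with 26.7% of the 6160 promoters of this kind in the genome. These 4 were the 3 promoters of Dnmt3l and the outermost promoter of Aebp2.

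The first question was whether paralogs differed in having a promoter site. They did not, since a site lay within 1 kb of a start site in 43 of 43 members (100%, 95% Wilson interval 91.8 to 100%, which treats genes as independent), compared with 70.8% of protein-coding genes. This share has to be read against 2 properties of the members. A CpG island computed from the genome lay at a start site of 42 of 43 members (97.7%) but of 57.9% of protein-coding genes, and 95.8% of protein-coding genes with an island had a promoter site. The members also had a median of 7 annotated start sites and protein-coding genes of 3, and 93.7% of protein-coding genes with at least 5 start sites had a promoter site. The member without an island was Dnmt3l, and among protein-coding genes without an island 36.4% had a promoter site. The share in members was thus close to that of other genes with an island.

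Paralogs differed at the outermost annotated 5′ end of the gene. A site lay within 1 kb of this end in 39 of 43 members (90.7%), compared with 66.2% of protein-coding genes, and in 34 of the 39 the end lay inside the site. The 4 members without a site there, 9.30% of the 43, were Dnmt1, Dnmt3l, Tet1 and Tet3, compared with 6.53% of all protein-coding genes with a promoter site. None of the 31 Polycomb genes was among them, but the share of all members was close to that of protein-coding genes, and the 4 are few. The outermost ends of Dnmt1, Tet1 and Tet3 each rested on 1 transcript. In the DNMT3 family, Dnmt3a and Dnmt3b had a site at the outermost end and Dnmt3l had none, the nearest being 1282 bp away. The next start of Dnmt3l, close to its outermost one, was 942 bp from that site. In the TET family, the outermost end of Tet2 lay inside a site, while the nearest site was 4366 bp away in Tet1 and 1651 bp away in Tet3.

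**Figure D1:**
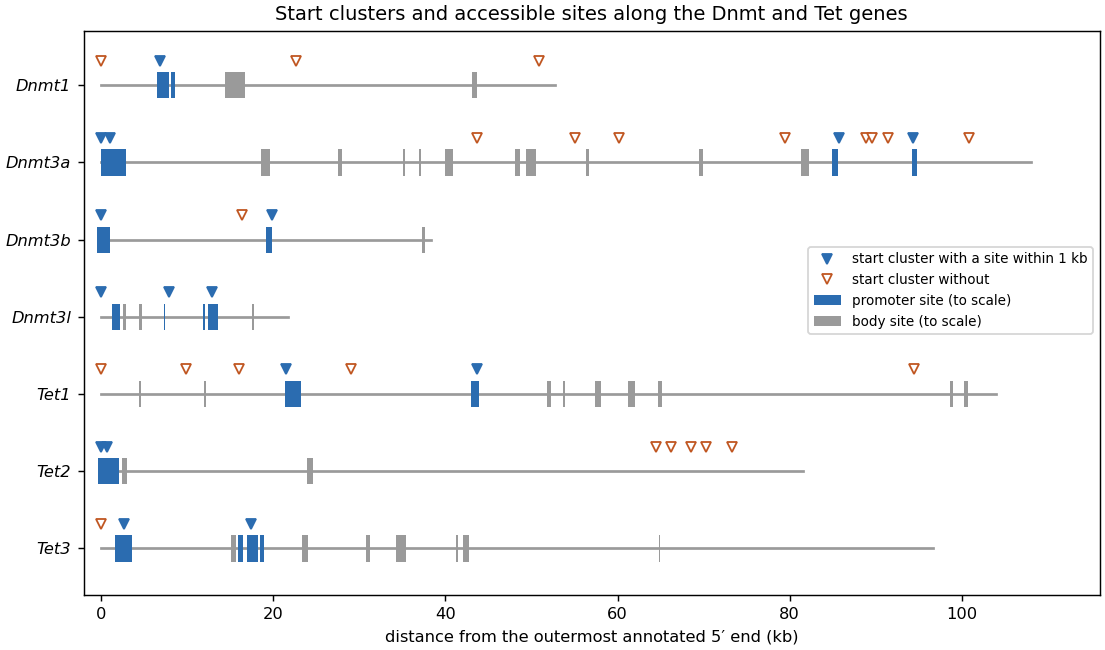
Start clusters (triangles) and accessible sites (bars, to scale) along the Dnmt and Tet genes, plotted as the distance in kb from the outermost annotated 5′ end. Filled triangles stand for clusters with a site within 1 kb and open triangles for those without, and the open triangles at 0 kb are those of Dnmt1, Tet1 and Tet3. The filled triangle at 0 kb of Dnmt3l stands for a cluster whose second start, not its outermost one, was within 1 kb of a site.

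Start sites at most 500 bp apart were joined into start clusters, so that alternative promoters were counted once. The 43 members had 162 clusters, and 83 of these (51.2%) had a site, compared with 45.9% of the clusters of protein-coding genes. By single start sites, 214 of 311 (68.8%) had a site, compared with 60.6%. Several clusters were annotated in 38 members, and 28 of them had at least 1 cluster without a site. Among protein-coding genes with several clusters and a promoter site, the share with such a cluster was 81.0%. Of the Polycomb clusters 59 of 107 (55.1%) and of the DNA methylation clusters 24 of 55 (43.6%) had a site.

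Many of the clusters without a site were weakly annotated. Of the 79, 65 rested on a single transcript, 48 held no coding transcript and 17 held a coding transcript not marked as incomplete at its 5′ end. The corresponding counts among the 83 clusters with a site were 27, 18 and 63. The CpG ratio in the 500 bp either side had a median of 0.725 in clusters with a site and of 0.237 in clusters without, and GC content had medians of 60.5% and 43.7%. A ratio over 0.6 was reached by 51 of the clusters with a site and by 1 without, a cluster of Tet1 with a single coding transcript at chr10:62880014, 5807 bp from the nearest site and with a ratio of 0.631. Distances from the clusters without a site to the nearest site ranged from 1091 to 48755 bp, the longest being in the 3′ part of Tet2.

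**Figure D2:**
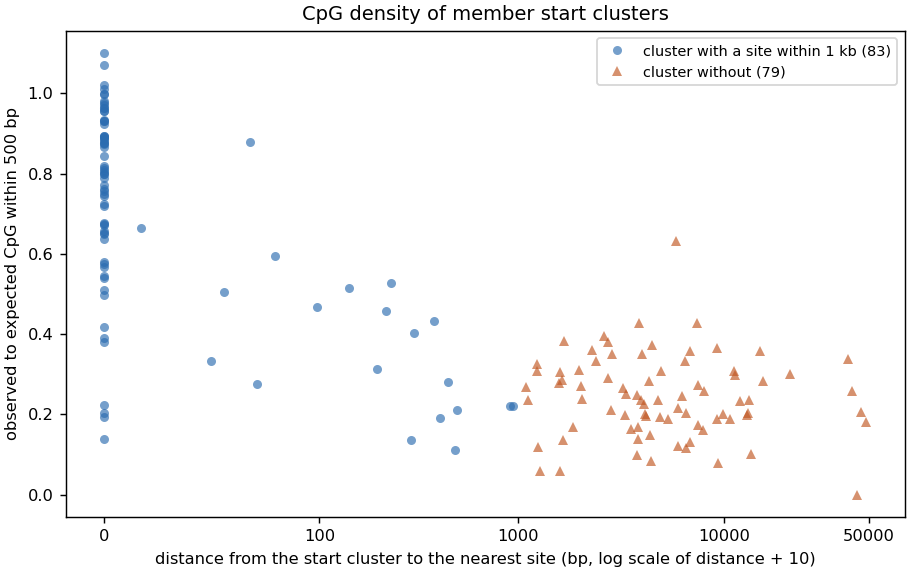
Observed to expected CpG within 500 bp of each member start cluster against the distance to the nearest accessible site (log scale of the distance in bp plus 10). The 83 clusters with a site (circles) have a median ratio of 0.725 and the 79 without (triangles) of 0.237, with 1 triangle above 0.6.

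**Figure D3:**
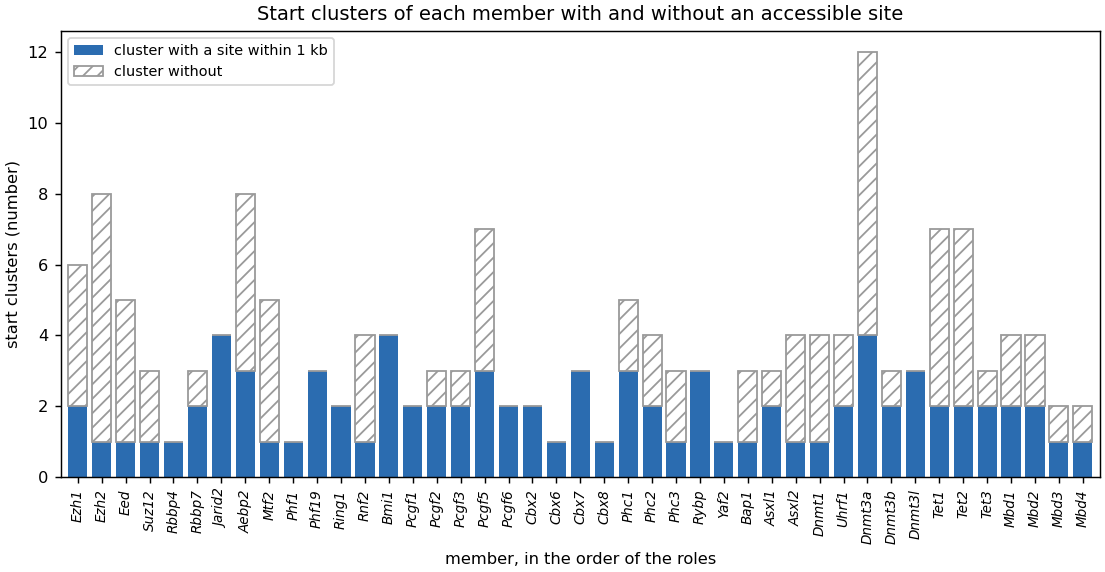
Number of start clusters of each member with a site within 1 kb (filled) and without (hatched), in the order of the roles. All 43 bars have a filled part, and the tallest is that of Dnmt3a with 4 filled of 12.

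Among the genes of the PRC2 core, 8 of 26 clusters had a site, the lowest share of the roles. Of the PRC2 core clusters without a site, only that of Ezh2 at chr6:47577660-47578010 held a coding transcript not marked as incomplete at its 5′ end. The share thus counts many starts of noncoding or incomplete transcripts. Ezh2, the main methyltransferase of dividing cells, had 8 clusters and a single promoter site of 1838 bp (chr6:47594033-47595870). The other 7 clusters of Ezh2 had none, including 1 with a coding start at chr6:47577660-47578010, 6255 bp from the nearest site. Its paralog Ezh1 had 6 clusters and 2 promoter sites, 1216 bp at its 5′ end and 777 bp at a start 25520 bp inside the gene, the latter at a noncoding transcript with a CpG ratio of 0.139. Eed and Suz12, the scaffold subunits, had 1 promoter site each, of 1989 and 2091 bp. Rbbp4 and Rbbp7 had 1 promoter site each, of 1823 and 2206 bp, but Rbbp7, on chromosome X, had no further site in its body or within 20 kb. Chromosome X carried 20.9 sites per Mb, compared with 44.0 per Mb in the 5 Mb around Rbbp7 and a median of 70.0 per Mb around protein-coding genes. Whether this low density bears on the missing flank sites was not tested.

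The accessory subunits of PRC2 differed more among themselves. Jarid2, which recruits PRC2, had sites at all 4 clusters, of 1649, 1147 and 1039 bp, the last centred 110888 bp downstream of the 5′ end, where 2 further start sites lie. Aebp2 had sites at 3 of 8 clusters, and its widest site of 1735 bp ended 386 bp upstream of the outermost start without covering it. The Polycomb-like proteins, which bind methylated lysine 36 of histone H3, showed sites of 1170 bp (Phf1), 1425 bp (Mtf2) and 2215 bp (Phf19). In Mtf2, 1 of 5 clusters had a site, and in Phf19 3 of 3. The site of Phf19 was narrower only than those of Dnmt3a and Tet2.

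In PRC1, the ligases Ring1 and Rnf2 had 1 promoter site each, of 1131 and 1633 bp. Among the PCGF genes, 15 of 21 clusters had a site. Bmi1 had sites at 4 of 4 clusters, of 1066, 260 and 805 bp, the first being wider only than that of Mbd2 among all members. Its closest paralog Pcgf2 had sites at 2 of 3 clusters, of 1153 and 695 bp. Pcgf1 and Pcgf6 had a single promoter site each (1596 and 1192 bp), Pcgf3 had 2 (1357 and 601 bp) and Pcgf5 had 3 (2000, 1674 and 689 bp). The site of 1674 bp in Pcgf5 was centred 61441 bp downstream of the 5′ end at an internal RefSeq start with 35 CpG in 300 bp. Between them, 3 coding transcripts of Pcgf5 started at chr19:36379068-36379106 without a site, and the nearest was 9187 bp away. The RefSeq promoter there held 5 CpG.

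The CBX genes, which encode the chromodomain proteins of canonical PRC1, had sites at 7 of 7 clusters. Cbx2, Cbx6 and Cbx8 had a single promoter site each, of 2008, 1490 and 1177 bp. Cbx7 had 4, of 1389, 978, 397 and 223 bp. The narrowest of these was the one at its outermost end, and the widest covered no annotated start of Cbx7. The PHC genes, which encode polymerizing subunits, had sites of similar width, 1760 bp in Phc1, 1729 bp in Phc2 and 1671 bp in Phc3. Phc2 had a further site of 1471 bp at its outermost end, while the widest one was centred 73133 bp downstream of that end, and the start between them printed above had its nearest site 3985 bp away. In Phc1, 4 transcripts, 3 of them coding, started at chr6:122336919-122337296, 1665 bp from the nearest site. Rybp and Yaf2, which replace CBX proteins in variant PRC1, had 2 promoter sites each, the wider ones spanning 1912 and 1122 bp. In PR-DUB, Bap1 had a site of 1511 bp, and Asxl1 and Asxl2, the paralogs that activate it, had sites of 1844 and 2126 bp at their 5′ ends. Asxl1 had a second site of 972 bp centred 2341 bp inside the gene.

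Dnmt1 had 4 clusters, 1 of which was accessible. The accessible cluster held 4 transcripts and lay 6909 bp downstream of the outermost end inside a site of 1411 bp (chr9:20951964-20953374), while a narrower site of 437 bp followed it. The outermost transcript, Dnmt1-202, starts at chr9:20959888, 1591 bp from the nearest site and with a CpG ratio of 0.0588 in 1 kb. Mouse Dnmt1 is known to be transcribed from an upstream promoter in oocytes, but whether this annotated start is that promoter was not tested. Uhrf1 had 2 of 4 clusters with a site, both in 1 site of 1826 bp.

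Dnmt3a had the widest promoter site of the 43 genes, 2848 bp at chr12:3806038-3808885, wider than that of 98.6% of protein-coding genes with a promoter site. It held 5 of the 18 start sites of Dnmt3a and extended 460 bp upstream and 2387 bp downstream of the first of them. An internal start, chr12:3891728-3891744, with 2 coding transcripts, had a site of 650 bp that ended 142 bp upstream of it. The isoform Dnmt3a2 is known to start inside the gene in embryonic stem cells, and the annotation does not name this start as that one. Another site of 609 bp lay at a transcript marked as incomplete. The remaining 8 clusters of Dnmt3a had none, and 3 of them held complete coding transcripts. Dnmt3b had a site of 1513 bp at its 5′ end, which held 4 start sites, and a site of 682 bp near a noncoding start 19920 bp inside. Dnmt3l had 3 clusters, each with a site within 1 kb, but only the cluster at chr10:78054835-78055335 lay inside one (1110 bp). The other clusters of Dnmt3l were 942 and 452 bp from sites of 876 and 180 bp. Dnmt3l lies in a stretch of chromosome 10 dense in sites. The 5 Mb around it held 157 sites per Mb, more than around 99.5% of protein-coding genes, and chromosome 10 carried 112 sites per Mb beyond position 75 Mb and 59.8 per Mb up to it. Around Dnmt3a the density was 41.4 per Mb and around Dnmt3b 90.2 per Mb. The part of this density in the sites of Dnmt3l was not tested.

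In the TET family, Tet2 had 1 promoter site of 2424 bp (chr3:133543029-133545452), narrower only than that of Dnmt3a, which held 5 start sites. The other 5 clusters of Tet2 lay 64457 to 73322 bp downstream, held 1 coding transcript, marked as incomplete, and were at least 39890 bp from the nearest site. The widest site of Tet1, 1832 bp, lay at a cluster 21484 bp inside the annotated gene and held 2 start sites of coding transcripts (chr10:62887324-62887512). Upstream of it, 3 clusters with 1 complete coding transcript each had no site and CpG ratios of 0.148, 0.270 and 0.100. Tet3 had a site of 1922 bp at a start 2692 bp downstream of the outermost end, and 3 sites of 1225, 568 and 489 bp around a cluster 17406 bp downstream. Thus, the widest site was at the first cluster in Tet2 but not in Tet1 or Tet3.

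The MBD genes had 1 promoter site each except Mbd2, which had 3. Mbd2, a reader of methylated CpG, had the narrowest widest site of the 43 (1013 bp), which covered none of its start sites, while a site of 834 bp lay at the outermost end. Mbd1 had a site of 1097 bp, wider only than those of Mbd2 and Bmi1. Mbd3, a subunit of the NuRD complex, had a site of 2006 bp, and Mbd4, a DNA glycosylase, of 1228 bp. Mbd3, like Dnmt3l, lies on chromosome 10 beyond 75 Mb, with 137 sites per Mb around it.

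The width of the widest promoter site of each gene had a median of 1649 bp in the 43 members, with quartiles of 1222 and 1917 bp and a 95% interval of the median of 1411 to 1832 bp from order statistics. The median was 1412 bp over the 15530 protein-coding genes with a promoter site and 1499 bp over those with an island. The interval of the members included the latter and, by 1 bp, the former. Of the members, 28 were wider than the median of protein-coding genes and 26 than that of genes with an island. A width of 2 kb or more was found in 9 members (20.9%), compared with 13.9% of protein-coding genes with a promoter site. These were Suz12, Rbbp7, Phf19, Pcgf5, Cbx2, Asxl2, Dnmt3a, Tet2 and Mbd3, Pcgf5 being exactly at the limit of 2000 bp. The 13.9% covers genes with and without an island, and the members had more annotated start sites from which the widest site was taken. By role, the medians were lowest in the MBD genes (1162.5 bp, 4 genes) and the PCGF genes (1274.5 bp, 6 genes) and highest in the TET genes (1922 bp, 3 genes) and the PRC2 core (1913.5 bp, 6 genes). The ranges of some roles overlapped, such as 1013 to 2006 bp in MBD genes and 1216 to 2206 bp in the PRC2 core. That of the TET genes (1832 to 2424 bp) overlapped in part with that of the PCGF genes (1066 to 2000 bp). It did not overlap with that of the PHC genes (1671 to 1760 bp).

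**Figure D4:**
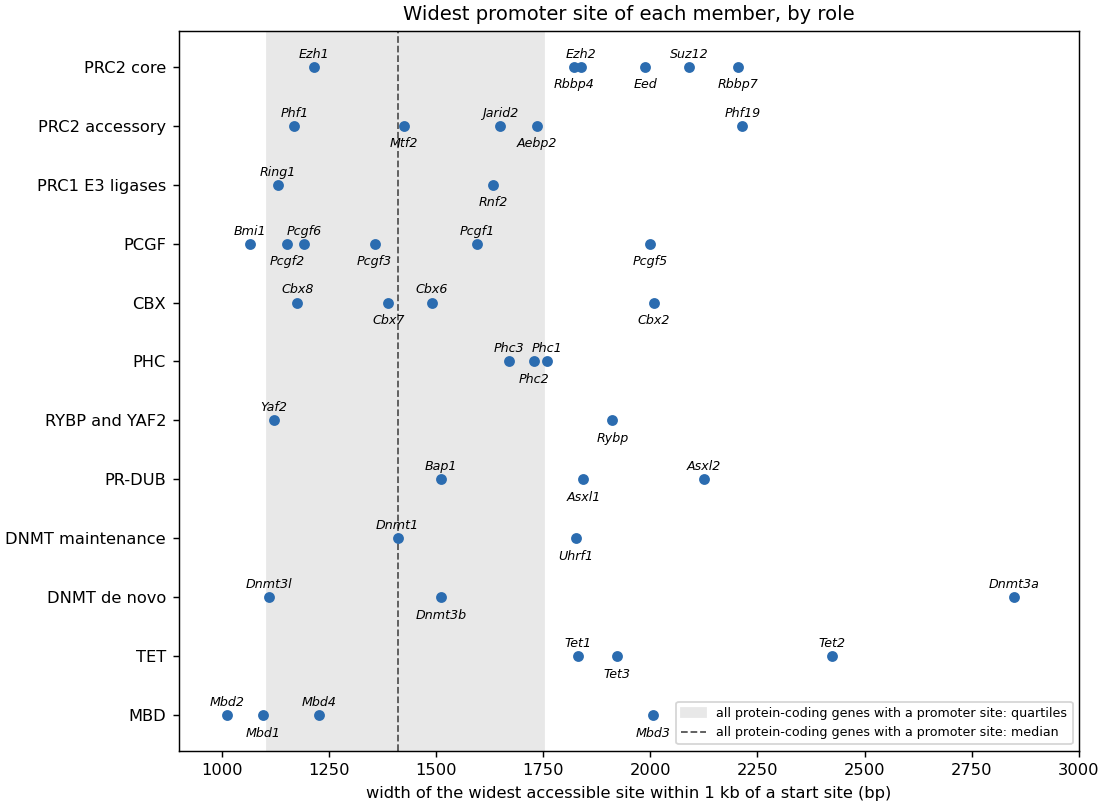
Width in bp of the widest accessible site within 1 kb of a start site, for each member by role (points), beside the median (dashed line, 1412 bp) and quartiles (grey, 1107 and 1753 bp) of the 15530 protein-coding genes with a promoter site. Dnmt3a (2848 bp) and Tet2 (2424 bp) lie farthest to the right and Mbd2 (1013 bp) farthest to the left.

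The sites reached further downstream than upstream. Measured from the outermost start inside the widest site, which 40 members had, the site extended a median of 535.5 bp upstream and 1042 bp downstream. Over protein-coding genes the medians were 541 and 841 bp. The downstream part was the longer one in 30 of 40 members, compared with 71.7% of protein-coding genes. The 3 members whose widest site held none of their starts were Aebp2, Cbx7 and Mbd2.

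In 12 members the widest promoter site also held start sites of other genes, so the site cannot be assigned to 1 of them. Coding neighbours were Zbtb8os at Rbbp4, Npcd at Cbx6, Phf7 at Bap1 and Ift122 at Mbd4. Noncoding genes shared the sites of Eed, Phf19, Ring1, Pcgf5, Asxl1, Asxl2, Dnmt3b and Tet2, among them Dnmt3bos at Dnmt3b and the microRNA gene Mir219a-1 at Ring1.

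At least 2 promoter sites were found in 21 of 43 members (48.8%), compared with 21.7% of protein-coding genes, which have fewer annotated start sites. Of these 21, 14 were Polycomb genes and 7 were genes of DNA methylation. Cbx7, Dnmt3l and Tet3 had 4 each, and Jarid2, Bmi1, Pcgf5, Dnmt3a and Mbd2 had 3 each. Phf1, Cbx7, Yaf2, Dnmt1, Dnmt3l, Tet3 and Mbd2 had more promoter sites than clusters with a site, so that some of their sites belonged to the same cluster.

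Sites in the gene body outside promoter windows were found in 32 of 43 members (74.4%), compared with 52.7% of protein-coding genes. Members were longer, with a median of 38.3 kb compared with 17.4 kb. They held 7.49 body sites per 100 kb of summed length, compared with 6.06. Of the 144 body sites, Jarid2 (192 kb) had 25, Phc2 (98.2 kb) 15, Dnmt3a (108 kb) 10 and Tet1 (104 kb) 9. The summed value thus rests much on few genes. At least 25 body sites were found in 2.00% of protein-coding genes. In protein-coding genes of 178 to 316 kb the median was 17 body sites with quartiles of 10 and 23, so that Jarid2 was above the upper quartile. In those of 56.2 to 100 kb it was 5 with quartiles of 2 and 7, fewer than the 15 of Phc2. In those of 100 to 178 kb the median was 9 and the upper quartile 13, so that Tet1 was at the median and Dnmt3a between them. The 11 members without a body site were Eed, Rbbp7, Phf1, Ring1, Bmi1, Pcgf1, Cbx2, Bap1, Uhrf1, Mbd1 and Mbd3, of 2.99 to 26.3 kb.

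**Figure D5:**
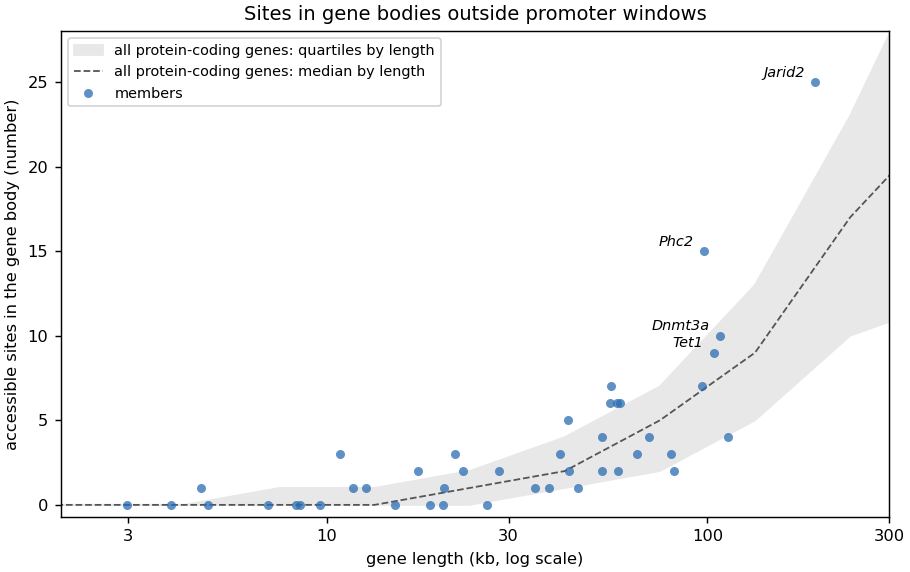
Number of accessible sites in the body of each member, outside promoter windows, against gene length in kb (log scale), beside the median (dashed line) and quartiles (grey) of protein-coding genes binned by length. Jarid2 with 25 and Phc2 with 15 sites lie above the grey band, and Dnmt3a with 10 and Tet1 with 9 lie within it.

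The body sites were narrow, with a median width of 529.5 bp, and the middle of 129 of the 144 lay in an intron. The widest were 2573 bp in an intron of Cbx7 (chr15:79950099-79952671) and 2377 bp in an intron of Dnmt1 (chr9:20943156-20945532), both wider than the widest promoter site of the same gene, 1389 and 1411 bp. In Jarid2, 17 body sites lay upstream of the internal promoter site centred 110888 bp from the 5′ end and 8 downstream of it. The widest of Jarid2 spanned 1530 bp at chr13:44907563-44909092. In Phc2, 10 body sites lay between its promoter sites, on either side of the start without a site, and 5 further downstream. The widest of Phc2, 1739 bp at chr4:128711255-128712993, had its middle in an exon.

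At least 1 site within 20 kb outside the gene was found in 42 of 43 members (97.7%), compared with 83.7% of protein-coding genes, the exception being Rbbp7. Of the 202 flank sites, 56 lay within 1 kb of a start site of another gene. Cbx8 had 11 and Cbx7 10 flank sites, and at least 10 were found in 1.03% of protein-coding genes. Cbx2 and Cbx8 are neighbours on chromosome 11 and shared 8 sites, so their counts are not independent, and the promoter site of each was a flank site of the other. The 5 Mb around Cbx7, on chromosome 15, held 152 sites per Mb, and the 5 Mb around Cbx2 and Cbx8 held 126 per Mb, compared with a median of 70.0 around protein-coding genes. Over all members the median was 72.2 per Mb. The part of local density in these counts was not tested.

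Short motifs were searched in the promoters on both strands as exact letters, which describes the sequence and does not show binding. The E2F motif (TTTCCCGC, TTTCGCGC, TTTGCCGC or TTTGGCGC), which marks many genes of DNA replication, was found in 5 of the 52 member promoters (9.62%), compared with 2.87% of all RefSeq promoters and 3.80% of those with a site. The 5 belonged to Ezh2, Suz12, Phf19, Dnmt1 and Uhrf1. The matches are shown with the motif in capitals and 12 bases on each side, on the strand that reads the motif.

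Ezh2, chr6:47595008-47595039 (- strand): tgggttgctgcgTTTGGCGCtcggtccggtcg
Suz12, chr11:79992875-79992906 (+ strand): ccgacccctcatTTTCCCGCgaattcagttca
Phf19, chr2:34914165-34914196 (+ strand): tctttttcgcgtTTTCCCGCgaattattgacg
Dnmt1, chr9:20952571-20952602 (- strand): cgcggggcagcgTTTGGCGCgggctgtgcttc
Dnmt1, chr9:20952823-20952854 (+ strand): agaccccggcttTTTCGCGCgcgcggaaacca
Uhrf1, chr17:56304116-56304147 (+ strand): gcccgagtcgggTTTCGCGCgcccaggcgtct

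The match of Ezh2 was centred 7 bp downstream of the start and those of Suz12, Phf19 and Uhrf1 216, 204 and 182 bp upstream. Dnmt1 had a match on either side of its start at chr9:20952623, 37 bp downstream and 215 bp upstream. The distance in Uhrf1 was taken from the start at chr17:56304313. Both genes have another RefSeq start, at chr9:20952979 and chr17:56303337, and their matches lie downstream of it. The paralogs Ezh1, Dnmt3a, Dnmt3b and Dnmt3l had no such match in these windows. Which genes held the motif depended on the sequence searched. In the middle 200 bp of members' own promoter sites, Ezh2, Dnmt1 and Uhrf1 had a match, but Suz12 and Phf19 had none. Eed, Pcgf2 and Mtf2, a paralog of Phf19, had a match there but none in their RefSeq promoters.

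The E-box CACGTG was found in 11 of the 52 member promoters (21.2%), compared with 8.03% of all and 9.70% of those with a site. Its holders were Rbbp4, Bmi1, Pcgf2, Cbx6, Cbx8, Phc2, Phc3, Bap1, Asxl2, Dnmt3a and Dnmt3l. Of the sites of the members, 134 lay within 1 kb of a start site of any gene, flank sites at neighbouring genes included. In their middle 200 bp the E-box was found in 4 (2.99%), compared with 3.91% of all such sites. Over whole sites it was found in 26.1%, compared with 19.3%. The higher share in member promoters was thus not seen in the middles of these sites. The SP motif GGGGCGGGG was found in 15 (28.8%, compared with 15.8% of all and 21.4% of those with a site). The ETS motif CCGGAAG was found in 3 (5.77%, compared with 11.9% of all and 15.9% of those with a site). In the middle 200 bp of the 134 sites, ETS was found in 12 (8.96%), compared with 5.01% of all such sites. Of the members' own promoter sites, those of Pcgf1, Phc1, Dnmt3a and Mbd2 held it there. The other matches lay in flank sites at neighbouring genes. The shares in promoters and in sites thus describe different sequences, and no direction is given for the ETS motif. The EGR motif (GCGTGGGCG or GCGGGGGCG) was found in 6 (11.5%, compared with 4.81%), the NF-Y motif CCAAT in 21 (40.4%, compared with 37.8%) and the CRE TGACGTCA in 1 (1.92%, compared with 2.31%). The EGR and SP forms can overlap in GC-rich stretches, and with 52 promoters these shares rest on few matches.

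At distal sites, which lay more than 1 kb from any start site, the AP-1 motif TGACTCA was found in the middle 200 bp of 42 of 279 member sites (15.1%), compared with 16.3% of all 127255 distal sites. In the 134 sites near a start site of any gene it was found in 2 (1.49%), compared with 7.02% of all such sites. The TEAD motif ACATTCCA was found in 10 of 279 distal sites (3.58%), compared with 2.51%. The whole length of the body sites held an AP-1 match in 6 of 25 in Jarid2, 5 of 15 in Phc2 and 4 of 10 in Dnmt3a, compared with 31.0% of all distal sites searched over their whole length. The match nearest to the middle of the widest such site is shown for each, since these genes had the most body sites.

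Jarid2, chr13:44779116-44779146 (+ strand): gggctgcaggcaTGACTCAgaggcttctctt
Phc2, chr4:128730646-128730676 (+ strand): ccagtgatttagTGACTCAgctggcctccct
Dnmt3a, chr12:3825024-3825054 (- strand): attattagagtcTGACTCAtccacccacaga

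A list of 53 further genes of these pathways was examined in the same way, and 51 had a promoter site. The share was 70.8% over protein-coding genes and 95.8% over those with a CpG island, which most of the 53 had. All 6 partners of PR-DUB and all 18 genes listed under readers and repair of DNA methylation had one, including the thymine DNA glycosylase gene Tdg. The latter list also held other factors, such as Trim28, Setdb1 and Hells. Of the PRC1 partners 23 of 24 had one, the exception being Auts2 with 20 annotated start sites. Of the PRC2 regulators 4 of 5 had one, the exception being Kdm6b, a demethylase of lysine 27, whereas its paralog Kdm6a had a site. The nearest site to a start site of Kdm6b was 1526 bp away, so that it lacked a site in the window of 1 kb but not in one of 3 kb, whereas it was 130055 bp away in Auts2. Auts2 also had no site in its body or within 20 kb.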

How the data were processed

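Per the methods, the authors used Trim Galore to trim the ATAC-seq reads and BWA to align them to mm10, then filtered following ENCODE, used Picard to merge replicates and MACS for narrow peaks, with nf-core code they modified. Versions, thresholds and the joining of sites across samples were not given in the sources used here, and each could change the number and the edges of sites. The deposited list used here gives genome positions in bp. It contains no count or signal, so depth is unknown, no test was made, and the intervals given cover genes only. The planned design had no test.

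Positions in the list count from 0 with an open end (smallest gap 1 bp, 0 sites beyond a chromosome end) and are printed counted from 1. The 242 sites on other sequences were left out. Genes and start sites came from all transcripts of GENCODE M21. Promoter sites shared at least 1 bp with the 1 kb on each side of a start site, body sites overlapped the gene outside these windows, and flank sites lay within 20 kb. The widest promoter site stood for a gene. CpG islands were computed outside repeats (at least 200 bp, GC over 0.5, observed to expected CpG over 0.6). RefSeq promoters of 300 bp were matched by symbol. Counting was tested on simulated data. The tools were Matplotlib 3.10.9, SciPy 1.17.1, NumPy 2.4.6, Numba 0.67.0 and Python 3.11.15. The named genes were those without a site at a start cluster, with at least 2 promoter sites, at the ends of the width order or with the most body or flank sites, and each member was accounted for. The members and lists were chosen with earlier results of these data known.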

Additional observations from a re-analysis of the deposited data

How the results depend on the processing

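All 43 members kept a promoter site with windows of 500 bp or 3 kb, with coding transcripts only, with the middle of the site required in the window, with the wider sites of the list only and with sites at most 100 bp apart merged. With the outermost 5′ end only, 90.7% had one, since 1 start per gene was then read. The median width of the widest promoter site remained between 1633 and 1649 bp under these settings. The share of member start sites with a site, 68.8%, was 78.5% with windows of 3 kb, 79.1% with coding transcripts only and 90.7% with the outermost ends, compared with 72.2%, 65.6% and 66.2% over protein-coding genes. It was 74.7%, compared with 62.8%, without transcripts marked as incomplete at the 5′ end, a setting chosen after seeing the data. The share of members with a flank site was 86.0% within 10 kb and 100% within 50 kb, compared with 73.1% and 90.0% of protein-coding genes. With stricter islands (at least 500 bp, GC over 0.55, ratio over 0.65), 90.7% of members and 38.9% of protein-coding genes had one, and Mtf2, Cbx7 and Dnmt1 joined Dnmt3l. Searching whole sites in place of the middle 200 bp gave AP-1 in 26.5% of distal member sites, in place of 15.1%. It gave E2F in 11.9% of the 134 member sites near a start site of any gene, in place of 5.22%. More sequence was read with whole sites. Over all sites of each kind the whole-site shares were 31.0% and 8.02%, and the shares in the middle 16.3% and 1.57%. Leaving out replicates was not possible, since the list pools the libraries. No paired analysis was possible because single libraries have no values here.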
